A study of Mus musculus with 60 samples.

Results

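The genes Trim34a, Trim5, Trim12a, Trim12c, Trim30b, Trim30c, Trim30a and Trim30d lie next to each other on mouse chromosome 7 and are described here across 5 tissues of 2 mouse strains. They were chosen by name as the restriction factor cluster of that chromosome, after their levels by strain and by animal had been seen in these data. All 8 of them were found among the 41079 genes of the deposited count table. RNA was measured by poly(A)-selected bulk RNA sequencing of liver, pancreas and the parotid, sublingual and submandibular salivary glands. The mice were CD1, an outbred stock in which animals differ in genotype, and C57, an inbred strain, with 3 males and 3 females of each. No treatment, engineered allele or age is given in the labels, and the C57 substrain is not named. Each of the 12 animals gave 1 library per tissue, so the 60 libraries fall into 20 groups of 3.

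TRIM proteins are ubiquitin ligases built from a RING domain, a B-box and a coiled coil. In the TRIM5 branch a SPRY domain follows, which in primate TRIM5 binds the incoming retroviral capsid and blocks infection. Trim5, Trim12a and Trim12c are the mouse relatives of that gene. Trim30a is known as an interferon-induced gene that restrains NF-kB signalling in immune cells, Trim30b, Trim30c and Trim30d are its paralogues, and Trim34a belongs to the same branch.

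In GRCm39 the listed exons of the 8 genes span 225.6 kb, from that of Trim34a at chr7:103893657-103893799 on the plus strand to that of Trim30d at chr7:104119221-104121842 on the minus strand. Between them, all on the minus strand, lie the listed exons of Trim5 (chr7:103912593-103915172), Trim12a (chr7:103949100-103949592), Trim12c (chr7:103987961-103990580), Trim30b (chr7:104004605-104007188), Trim30c (chr7:104028324-104031900) and Trim30a (chr7:104058232-104060876). The table gives 1 exon per gene, so these are positions of exons and not of whole genes.

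Promoters of the members are shown because several copies are alike there, which bears on the signals they can share. The sequences are RefSeq's for GRCm38.p6, the build of the coordinates on the next lines, and run 5′ to 3′ from 250 bases before to 50 after the gene's start. Capitals mark each match to GAAANNGAAA on either strand, the core of the interferon-stimulated response element. Trim34a is on the plus strand and the others on the minus strand. For Trim30a the table holds 2 promoters, and 1 of them is printed.
Trim5, chr7:104288057-104288356: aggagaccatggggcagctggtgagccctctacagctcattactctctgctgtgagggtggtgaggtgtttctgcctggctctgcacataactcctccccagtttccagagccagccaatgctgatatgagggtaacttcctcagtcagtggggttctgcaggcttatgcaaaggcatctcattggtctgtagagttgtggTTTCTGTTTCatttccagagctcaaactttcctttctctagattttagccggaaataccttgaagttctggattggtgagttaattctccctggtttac
Trim12a, chr7:104315446-104315745: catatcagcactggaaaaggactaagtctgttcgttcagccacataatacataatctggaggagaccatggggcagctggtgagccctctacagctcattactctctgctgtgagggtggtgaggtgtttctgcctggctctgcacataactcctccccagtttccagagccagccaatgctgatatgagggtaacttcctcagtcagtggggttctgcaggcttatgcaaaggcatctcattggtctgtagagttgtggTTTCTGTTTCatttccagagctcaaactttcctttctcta
Trim12c, chr7:104353300-104353599: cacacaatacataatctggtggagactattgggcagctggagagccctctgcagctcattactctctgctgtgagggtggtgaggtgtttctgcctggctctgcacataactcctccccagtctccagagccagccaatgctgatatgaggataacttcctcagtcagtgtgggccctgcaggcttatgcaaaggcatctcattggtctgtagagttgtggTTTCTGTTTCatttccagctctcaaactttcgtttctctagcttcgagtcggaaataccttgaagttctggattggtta
Trim30a, chr7:104465144-104465443: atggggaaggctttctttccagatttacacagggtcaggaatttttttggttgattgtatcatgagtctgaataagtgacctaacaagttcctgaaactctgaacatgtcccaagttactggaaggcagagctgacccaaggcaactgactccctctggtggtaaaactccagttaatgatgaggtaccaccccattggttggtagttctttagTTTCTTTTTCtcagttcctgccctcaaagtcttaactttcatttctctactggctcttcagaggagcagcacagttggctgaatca
Trim30d, chr7:104507800-104508099: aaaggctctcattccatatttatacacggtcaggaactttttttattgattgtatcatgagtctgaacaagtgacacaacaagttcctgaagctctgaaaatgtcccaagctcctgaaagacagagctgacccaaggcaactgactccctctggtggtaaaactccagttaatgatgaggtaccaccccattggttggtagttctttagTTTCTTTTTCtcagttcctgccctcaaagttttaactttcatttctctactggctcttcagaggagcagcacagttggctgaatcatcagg
Trim34a, chr7:104244207-104244506: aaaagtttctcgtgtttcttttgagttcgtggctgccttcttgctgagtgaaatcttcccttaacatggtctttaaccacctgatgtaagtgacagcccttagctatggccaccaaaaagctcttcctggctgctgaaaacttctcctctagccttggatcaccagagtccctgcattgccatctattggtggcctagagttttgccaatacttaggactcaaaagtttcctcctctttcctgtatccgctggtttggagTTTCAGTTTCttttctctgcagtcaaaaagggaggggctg
The printed Trim5 and Trim12a promoters held a stretch of 241 bases with 241 identical bases. Trim12c matched Trim5 at 262 of 277 aligned bases, which is 94.6% identity. The printed Trim30a promoter matched that of Trim30d at 276 of 294 aligned bases, which is 93.9% identity. The core motif was present in 7 of the 9 listed promoters of members, against 3.44% of the 32851 promoters in the table. Among 29 promoters of the interferon-induced genes listed below, the share was 55.2%. By gene, 6 of the 8 members had a match, with none in the 300 bases listed for Trim30b and Trim30c. Several of these promoters are near copies, so their matches are not independent. A match is a string of letters and was not tested for function.

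Likeness between copies also limits the counting of reads. In GENCODE vM21 transcripts, 29.5% of the distinct 75-base words of Trim34a occur in Trim34b, the copy outside the member list. The share of words found in another gene was 20.6% for Trim5, 16.9% for Trim12c, 5.4% for Trim30d, 5.2% for Trim12a, 5.0% for Trim30a and 0.1% for Trim30b, and none were shared for Trim30c. Levels of Trim34a, Trim34b, Trim5 and Trim12c are therefore uncertain by the way reads from shared stretches were counted, and the setting for such reads is not given in the sources used here. GRCm39 is built on a C57 mouse, and how well CD1 reads align to these genes was not tested.

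Library totals lay between 29.9 M and 66.6 M counts (M, mega), and their median was 40.5 M. Levels are CPM, counts scaled to a common library size with TMM. Of the defining genes, Alb was at 38000 to 96400 CPM in liver, Bpifa2 at 106000 to 479000 CPM in parotid and Muc19 at 5500 to 15800 CPM in sublingual gland. Egf, taken for submandibular gland, was at 18100 to 56900 CPM in its males but at 192 to 1050 CPM in its females. The lowest of these, C57 female 1, lay under the sublingual median of 211 CPM, so Egf does not mark every female library. Pancreas CD1 female 2 and 3 went against their label, with 33.5 and 9540 CPM of the pancreatic enzyme gene Cpa1 against a median of 90000 CPM over the 12 pancreas libraries. Sublingual C57 male 2 held 11300 CPM of Egf, a gene high in male submandibular gland, against the sublingual median of 211 CPM. Strain differences in pancreas are given with and without these libraries. The summed level of 25 immune cell markers was 965 to 2660 CPM in 8 libraries and 80.9 to 547 CPM in the other 52. The 8, set apart after their values were seen, were the 2 pancreas libraries above and parotid C57 male 1 and 3, CD1 female 2 and 3 and CD1 male 1 and 3. Ptprc, the leukocyte antigen CD45, was at 46.4 to 383 CPM in the 8 and 3.91 to 55.6 CPM in the 52. In bulk tissue, fewer cells of a type and less RNA per cell cannot be told apart.

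Trim12a, Trim34a, Trim30d and, in CD1 males, Trim5 were lower in CD1 than in C57, while Trim12c and Trim30a, which lie between Trim12a and Trim30d, overlapped between the strains. Of the 40 combinations of member and tissue, 36 passed the filter on low counts. In 12 of the 40 combinations of member and tissue, the 6 C57 libraries all lay above the 6 CD1 libraries, and in 0 of the 40 did CD1 lie above C57. The background, the share of all tested genes whose strains did not overlap in either direction, was 7.34% in liver, 5.26% in pancreas, 3.1% in parotid, 8.1% in sublingual and 2.77% in submandibular gland. The members were proposed from strain levels, so nothing is read from this count. Trim12a was apart in all 5 tissues, Trim34a and Trim30d in liver, sublingual and submandibular gland, and Trim5 in submandibular gland. After removal of the 3 libraries that stood apart, Trim30d was apart in pancreas too, and after removal of the 6 immune-rich parotid libraries Trim34a and Trim30d were apart in parotid too. Strain differences are given below as log2 fold changes of CD1 over C57 with their standard error (SE) and with no test.

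Trim12a, the TRIM5 relative closest to Trim5 in the promoter, was expressed in C57 and close to absent in CD1. Its level in the 30 C57 libraries had a lowest value of 2.46, a median of 7.75 and a highest value of 31.4 CPM. In the 30 CD1 libraries the lowest was 0, the median 0.0722 and the highest 0.549 CPM, which is 0 to 12 counts, with 13 libraries at or under the floor of 3 counts. The ranges leave a gap in every tissue. The log2 fold change was -5.84 ± 0.29 in liver, -4.16 ± 0.54 in pancreas (-3.45 without the 3 libraries that stood apart), -7.32 ± 0.23 in sublingual and -6.47 ± 0.30 in submandibular gland. In parotid the 3 CD1 females held 2, 3 and 3 counts, so the group was at the floor. With each of them set to 3 counts, C57 females were at least 120.2-fold higher. Within C57 the highest values were parotid male 1 and 3, with 31.4 and 29.1 CPM, and these 2 libraries are among the immune-rich ones. Transcripts of one tissue appeared at low level in libraries of others: Bpifa2, a parotid secretory gene with a median of 246000 CPM in parotid, was listed at 960 to 4410 CPM in liver. The part of such transcripts in the few CD1 counts of Trim12a was not tested.

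Trim12c, its near copy, was expressed in both strains. Its level was 3.41 to 21.1 CPM in C57 with a median of 8.73, and 3.43 to 29.5 CPM in CD1 with a median of 10.2. The strains overlapped in all 5 tissues. The log2 fold change lay between -0.35 ± 0.16 in submandibular gland and 0.24 ± 0.32 in parotid, apart from pancreas with 1.39 ± 0.40. Without the 3 libraries that stood apart the pancreas value was 0.25. Within CD1 the sexes were apart in 2 glands, with males higher. In sublingual gland the CD1 females held 5.80, 6.05 and 6.06 CPM and the CD1 males 12.0, 14.2 and 7.91 CPM, against 7.05 to 11.6 CPM in C57. In submandibular gland the CD1 females held 4.36, 3.90 and 7.53 CPM and the CD1 males 10.7, 11.4 and 9.79 CPM, against 8.08 to 10.8 CPM in C57. In both glands all 3 CD1 females thus lay below all 6 C57 libraries. The log2 difference of CD1 males from CD1 females was 0.93 ± 0.22 in sublingual and 1.0 ± 0.23 in submandibular gland. Counts of Trim12a per count of Trim12c, summed over an animal's 5 tissues, were 0.839 to 1.13 in the 6 C57 mice and 0.00493 to 0.0173 in the 6 CD1 mice. These are raw counts, so libraries with more counts of these genes weigh more in the ratio. Within single libraries, where scaling cancels, the ratio was 0.537 to 1.52 in C57 and 0 to 0.16 in CD1.

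**Figure D1:**
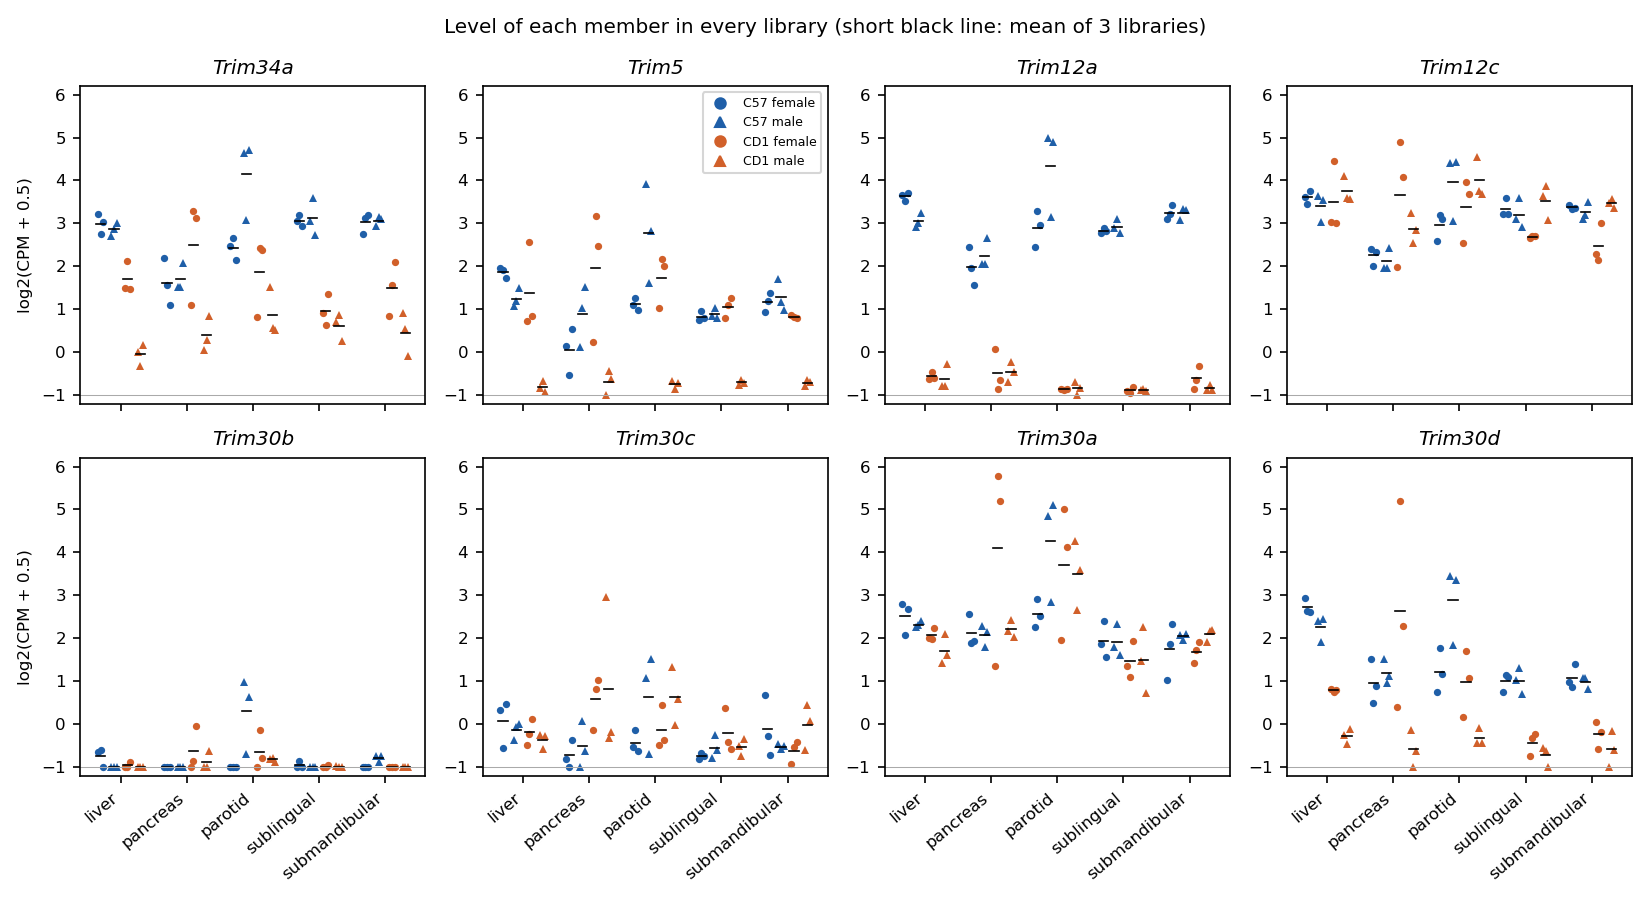
Level of each member in every library as log2(CPM + 0.5), by tissue on the horizontal axis, with C57 in blue and CD1 in orange, females as circles and males as triangles, and a short line at the mean of 3 libraries. Trim12a is at the bottom of the scale in all 30 CD1 libraries, Trim5 in the CD1 males, and the value -1 stands for 0 CPM.

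Trim5, the namesake gene, was near absent in CD1 males and present in CD1 females and in both sexes of C57. In liver the CD1 females held 1.16, 5.45 and 1.29 CPM and the CD1 males 0.0628, 0.124 and 0.027 CPM. In pancreas the females held 0.686, 8.56 and 5.02 CPM, of which 8.56 and 5.02 are from the libraries that went against their label, and the males 0, 0.236 and 0.153 CPM. In both tissues every female lay above every male. In parotid the females held 1.55, 4.0 and 3.51 CPM and the males 0.131, 0.0545 and 0.104 CPM. In sublingual gland the females held 1.25, 1.64 and 1.90 CPM and the males 0.0908, 0.143 and 0.111 CPM. In submandibular gland the females held 1.33, 1.27 and 1.23 CPM and the males 0.0792, 0.134 and 0.115 CPM. Every female again lay above every male, and none of the 15 CD1 male libraries exceeded 0.236 CPM or 12 counts. With both sexes together, the strain log2 fold change was -2.46 ± 0.43 in liver, -0.23 ± 0.68 in pancreas (-1.62 without the 3 libraries that stood apart), -2.73 ± 0.43 in parotid, -1.63 ± 0.20 in sublingual and -2.28 ± 0.26 in submandibular gland. C57 libraries ranged from 0.196 to 14.5 CPM, with a median of 1.48 in females and 1.73 in males. The log2 difference of males from females in CD1 was -5.15 ± 0.70 in liver, -5.23 ± 1.14 in pancreas, -4.89 ± 0.68 in parotid, -3.77 ± 0.31 in sublingual and -3.50 ± 0.40 in submandibular gland. In C57 the same difference was -0.70 ± 0.52, 1.32 ± 0.96, 2.21 ± 0.58, 0.07 ± 0.26 and 0.13 ± 0.32 in that order. The 2 high C57 males in parotid, at 14.5 and 6.52 CPM, are the immune-rich ones.

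This pattern of Trim5 was known when the gene was chosen and is a description. Over 22062 genes, 6 had CD1 females above CD1 males without overlap in all 5 tissues and 7 the reverse. Of the 6, 3 are on the sex chromosomes and Trim5 was the only one within 5 Mb of the cluster. The 3 CD1 males are 3 animals of an outbred stock, and their 15 libraries are not 15 independent samples. Whether sex or the genotypes these males happened to carry goes with the low level cannot be told apart with 3 animals of each sex.

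Trim34a was lower in CD1 than in C57, and in part of the tissues lower in CD1 males than in CD1 females. Its level was 1.64 to 25.8 CPM in C57 with a median of 7.15, 1.05 to 9.25 CPM in CD1 females with a median of 2.32, and 0.298 to 2.38 CPM in CD1 males with a median of 0.92. In liver the C57 libraries held 6.06 to 8.82 CPM, the CD1 females 2.32, 3.89 and 2.27 CPM and the CD1 males 0.502, 0.298 and 0.621 CPM, so that the 3 sets did not overlap. The CD1 sexes were apart in pancreas too and overlapped in parotid, sublingual and submandibular gland. In sublingual gland the CD1 females held 1.37, 1.05 and 2.07 CPM and the CD1 males 1.13, 1.31 and 0.696 CPM, a log2 difference of males from females of -0.50 ± 0.30. The strain log2 fold change was -2.63 ± 0.21 in liver, -2.12 ± 0.42 in parotid, -2.72 ± 0.22 in sublingual and -2.37 ± 0.28 in submandibular gland. In pancreas it was -0.25 ± 0.43, and -1.25 without the 3 libraries that stood apart.

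Trim30d, the paralogue whose promoter is nearest to that of Trim30a in sequence, was likewise lower in CD1. C57 libraries held 0.913 to 10.5 CPM with a median of 1.73, and CD1 males 0 to 0.436 CPM with a median of 0.224. CD1 females had a median of 0.824 CPM and reached 36.2 CPM in pancreas CD1 female 2. The CD1 females lay above the CD1 males in liver, pancreas and parotid. The CD1 sexes overlapped in sublingual gland, with 0.095, 0.299 and 0.349 CPM in females and 0.182, 0.143 and 0 CPM in males, and in submandibular gland. The log2 difference of males from females was -1.11 ± 0.72 and -0.85 ± 0.70 in these 2 glands. The strain log2 fold change was -3.03 ± 0.20 in liver, -2.47 ± 0.45 in parotid, -3.21 ± 0.50 in sublingual and -2.53 ± 0.48 in submandibular gland. In pancreas it was -0.07 ± 0.67, and -2.06 without the 3 libraries.

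Trim30a, the best known of the Trim30 genes, overlapped between the strains in all 5 tissues, as did the weakly expressed Trim30b and Trim30c. Trim30a was at 1.55 to 33.7 CPM in C57 with a median of 4.30 and at 1.16 to 54.4 CPM in CD1 with a median of 3.57. Its strain log2 fold change was -0.59 ± 0.18 in liver, 0.33 ± 0.52 in parotid, -0.49 ± 0.31 in sublingual and -0.05 ± 0.22 in submandibular gland. In pancreas it was 1.54 ± 0.54 with all libraries and -0.42 without the 3 that stood apart. In parotid it was -0.47 without the 6 immune-rich libraries, so the direction turned in both tissues. Trim30c had a median of 0.195 CPM in C57 and 0.329 CPM in CD1, and was highest in pancreas CD1 male 1, at 7.27 CPM. Its strain log2 fold change in pancreas was 3.36 ± 1.05, 1.86 without that animal and 2.61 without the 3 libraries that stood apart. Trim30b was at 0 counts in 40 of 60 libraries, reached 1.48 CPM at most, and passed the filter on low counts only in parotid.

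**Figure D2:**
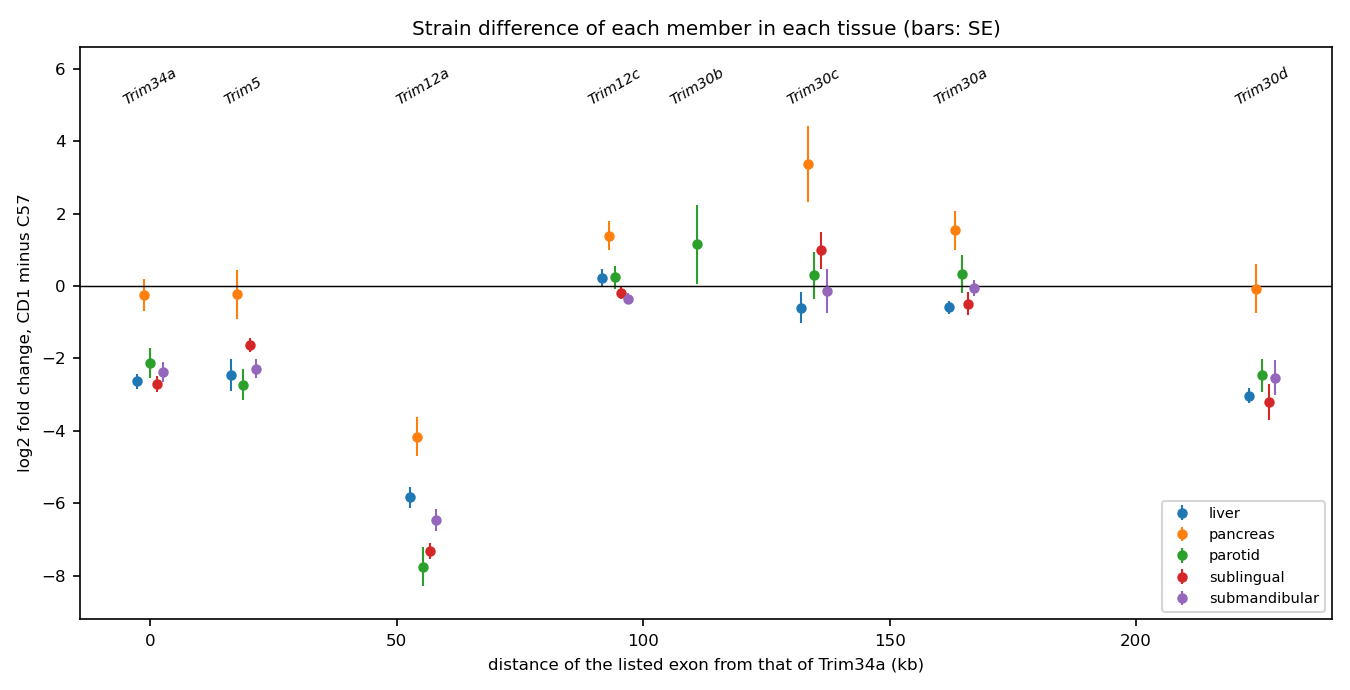
Log2 fold change of CD1 over C57 for each member in each tissue, with SE bars, against the distance in kb of its listed exon from that of Trim34a. Trim12a lies between -7.76 and -4.16, Trim30d between -3.21 and -0.07, and Trim12c and Trim30a, at positions between them, between -0.59 and 1.54. The -7.76 of Trim12a in parotid includes the CD1 females at the floor.

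Ratios within an animal were taken from raw counts summed over its tissues, so libraries with more counts weigh more in them. Those to Trim12c also carry its own difference between the CD1 sexes in sublingual and submandibular gland. Trim5 per Trim12c was 0.186 to 0.427 in the C57 mice, 0.223 to 0.279 in the CD1 females and 0.00571 to 0.0106 in the CD1 males. Trim34a per Trim12c was 0.71 to 0.967 in C57, 0.272 to 0.422 in CD1 females and 0.0727 to 0.0862 in CD1 males. The 3 sets of animals did not overlap for Trim34a, and for Trim5 the CD1 females lay within the C57 range. The top of that range, 0.427, is C57 male 1, with 786 of 1046 Trim5 counts from the immune-rich parotid library. The other C57 mice were at 0.186 to 0.231, and CD1 female 2 and 3, at 0.279 and 0.27, lay above them. Trim30d per Trim30a was 0.374 to 0.676 in C57, 0.122 to 0.443 in CD1 females and 0.0317 to 0.0559 in CD1 males. The 0.443 is that of CD1 female 2, and the other CD1 females were at 0.206 and 0.122. Of her 2867 Trim30d and 6477 Trim30a counts, 2599 and 3899 came from the pancreas library that went against its label. The overlap of CD1 females with C57 thus rests on that animal.

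**Figure D3:**
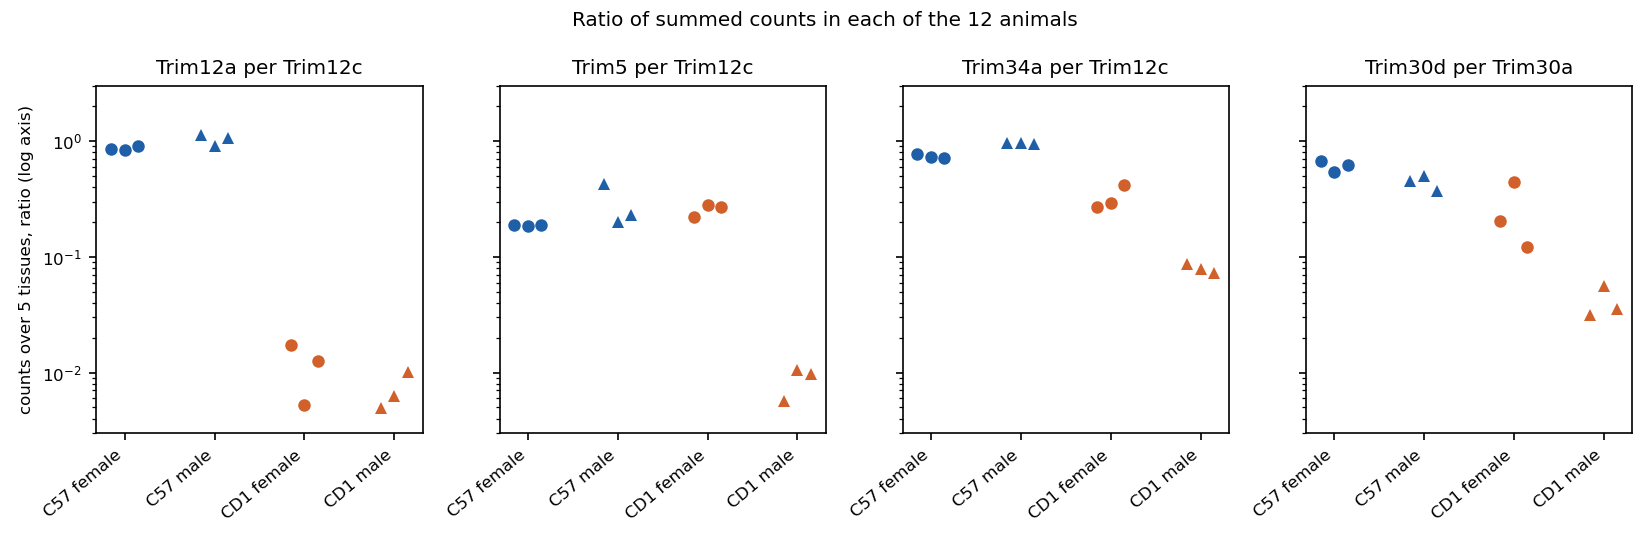
Ratio of the summed counts of 2 members in each of the 12 animals, on a log axis, 3 animals per strain and sex. Trim12a per Trim12c separates the 6 C57 from the 6 CD1 mice, and Trim5 per Trim12c separates the 3 CD1 males, at 0.00571 to 0.0106, from the other 9.

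How far the 5 tissues of an animal moved together was measured as the share of the tissue-centred variation that lay between animals. Only tissue means were taken out, so the share includes any difference between the sexes. Sex and differences between animals of a sex cannot be told apart in it. In CD1 it was 87.7% for Trim5, 69.0% for Trim34a, 44.8% for Trim30d, 40.2% for Trim12c and 34.2% for Trim30a, against a median of 23.8% over all genes. Trim12a, Trim30b and Trim30c were at 9.3%, 22.1% and 20.7%. Without the libraries that stood apart the order changed, with 85.7% for Trim5, 62.1% for Trim12c, 61.8% for Trim34a, 52.1% for Trim30d, 26.2% for Trim30a and 18.2% for Trim12a. In the inbred C57 the members were at 8.7% to 19.3%, against a median of 22.1%. Levels per animal entered the choice of the genes, so these shares are descriptions.

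The sex difference averaged over both strains passed the threshold for members in 5 of the 40 combinations, all lower in males (edgeR quasi-likelihood test). The background share of called genes was 2.64% in liver, 0.0307% in pancreas, 0.0319% in parotid, 0.0691% in sublingual and 17.2% in submandibular gland. Levels per animal entered the choice of the genes and the CD1 males carry most of these values, so nothing is read from the count and no p is given. In liver the log2 difference of males from females was -1.35 ± 0.21 for Trim34a, -1.18 ± 0.19 for Trim30d and -2.93 ± 0.44 for Trim5. For Trim5 it was -1.85 ± 0.20 in sublingual and -1.68 ± 0.25 in submandibular gland. By strain, males minus females in liver was -2.58 ± 0.31 in CD1 and -0.12 ± 0.27 in C57 for Trim34a, and -1.89 ± 0.29 and -0.47 ± 0.25 for Trim30d. In C57 liver, too, every female lay above every male for Trim5, Trim12a and Trim30d. The reverse held in C57 parotid for Trim34a, Trim5, Trim30b and Trim30d, with the immune-rich males 1 and 3 highest. The 5 stayed past the threshold in every alternative run. Leaving out CD1 female 1 raised the count to 12, of which 5 were in pancreas, where the remaining CD1 females are the libraries that went against their label.

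Tissues were compared within each strain. In C57, all 7 members tested differed between the 5 tissues (edgeR quasi-likelihood F test), where 88.8% of genes did. Pancreas was low for most: levels in liver exceeded those in pancreas by a log2 fold change of 1.34 ± 0.24 for Trim34a (edgeR, adjusted p = 2.8e-05), 1.27 ± 0.23 for Trim12a (3e-05), 1.40 ± 0.20 for Trim12c (1.24e-06), 1.37 ± 0.36 for Trim5 (0.0016) and 1.60 ± 0.29 for Trim30d (2.49e-05). For Trim30a this difference was 0.31 ± 0.30 (edgeR, adjusted p = 0.373). Among the salivary glands, Trim34a and Trim12c did not pass the test in any pair. Trim30d in liver had 3.25, 5.3 and 7.17 CPM as lowest, median and highest. That level exceeded sublingual gland by 1.80 ± 0.28 (edgeR, adjusted p = 2.64e-06) and submandibular gland by 1.72 ± 0.28 (5.45e-06), and the difference from parotid was 0.40 ± 0.27 (0.191). Without the 6 immune-rich parotid libraries, liver exceeded parotid as well, by 1.03 ± 0.30 (edgeR, adjusted p = 0.00548), and Trim30c no longer differed between tissues (adjusted p = 0.0631). Per kilobase, the highest mean levels in C57 liver were those of Trim12c with 2.87 and Trim34a with 2.33 CPM per kb, followed by Trim12a with 1.60, Trim30d with 1.35, Trim30a with 1.21, Trim5 with 0.628, Trim30c with 0.102 and Trim30b with 0.018.

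Trim30a stood highest in parotid in C57, and was higher in the libraries rich in immune markers. In C57 parotid minus sublingual gland was 1.78 ± 0.29 (edgeR, adjusted p = 2.69e-05) on the log2 scale, and liver minus parotid was -1.22 ± 0.29 (0.000641). Without the 6 immune-rich parotid libraries these differences were 0.88 ± 0.27 (edgeR, adjusted p = 0.015) and, for liver minus parotid, -0.35 ± 0.27 (0.288). Across all tissues, Trim30a was at 11.5 to 54.4 CPM in the 8 immune-rich libraries and at 1.16 to 7.09 CPM in the other 52, with no overlap. Trim12c was at 12.3 to 29.5 CPM in the 8 and 3.41 to 21.3 CPM in the 52, which overlap. Of the 25 markers, 2 were at 0 counts in pancreas CD1 female 2, 1 in parotid C57 male 3 and 0 in the other 6 of these libraries. In pancreas CD1 female 2, which holds the 54.4 CPM of Trim30a, 607 CPM of the marker sum of 1010 CPM were Jchain. Without Jchain its sum was 399 CPM. That is under submandibular C57 male 3 (540 CPM) and parotid CD1 male 2 (479 CPM), both among the 52. For this library the split into 8 and 52 thus rests on Jchain. The part of immune cells in the levels of Trim30a and Trim12c was not tested.

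**Figure D4:**
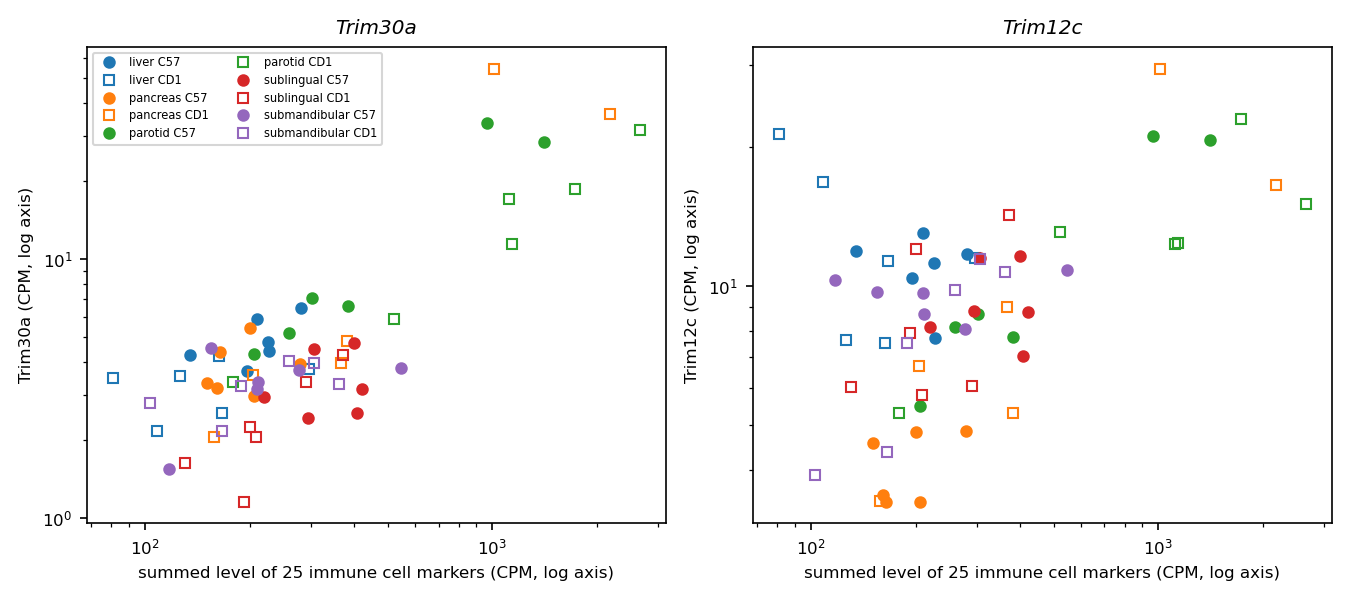
Levels of Trim30a and Trim12c in CPM against the summed CPM of 25 immune cell markers, both on log axes, 1 point per library, coloured by tissue, with C57 filled and CD1 open. The 8 libraries with a marker sum of 965 CPM or more hold 11.5 to 54.4 CPM of Trim30a, above all the others. Of the 1010 CPM of pancreas CD1 female 2, 607 CPM are Jchain.

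In CD1, 3 of 6 members tested differed between tissues, where 80.2% of genes did. These were Trim30a (edgeR quasi-likelihood F test, adjusted p = 5.18e-05), Trim30c (0.00205) and Trim30d (0.00901). Trim34a (0.0852), Trim12c (0.134) and Trim5 (0.453) did not pass. Removal of the 2 pancreas libraries that went against their label leaves only CD1 female 1 in that group, so calls of this fit are not given. Trim12a and Trim30b, not tested in the main fit, passed the filter on low counts in it. Both were near the floor in CD1, with 0 to 12 counts of Trim12a and a median of 0 CPM for Trim30b. The same animals gave all tissues, and with the animal as a block Trim30c was no longer called (adjusted p = 0.0658). Leaving out CD1 female 1 gave 6 calls and leaving out CD1 male 2 gave 5.

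**Figure D5:**
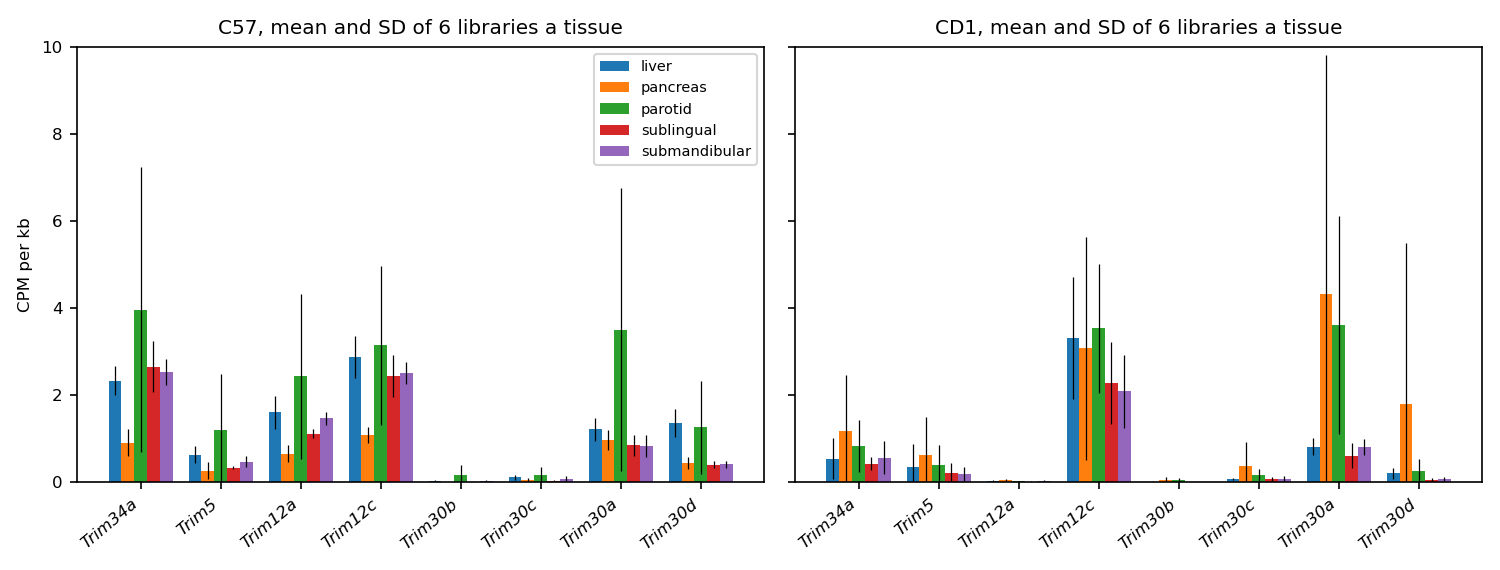
Mean level of each member by tissue in CPM per kb, with SD bars over 6 libraries, C57 on the left and CD1 on the right. In C57 parotid is the highest bar for every member but Trim30d, whose highest is liver at 1.35 CPM per kb. These parotid means rest on the immune-rich C57 male 1 and 3, with Trim34a at 24.5 and 25.8 CPM in them and 3.90 to 8.01 CPM in the other 4, and without them liver minus parotid is 0.14 ± 0.22 on the log2 scale for Trim34a and 0.48 ± 0.19 for Trim12c. In CD1 the pancreas bars carry the widest SD, those of Trim30a and Trim30d resting on the libraries that went against their label.

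Patterns most like each member were sought among all genes by Pearson's r of tissue-centred log2(CPM + 0.5), as a description over libraries that share animals. Only tissue means were taken out, so differences between strains stay in r, and within CD1 those between the sexes. Trim12a, close to absent in all 30 CD1 libraries, is thus matched with other genes that differ by strain. Regulation in common was not tested. Over the 60 libraries Trim34a was closest to Trim30d (r = 0.89) and Hjurp (0.84), and Trim5 to Trim30d (0.82) and Trim34a (0.81). Trim12a was closest to 2610507I01Rik (0.96) and the ribosomal protein gene Rpl29 (0.95). Trim12c was closest to the immunoproteasome gene Psmb9 (0.80) and the interferon-induced Mx1 (0.80), and Trim30a to Samhd1 (0.93), another restriction factor, and Dtx3l (0.92). Of the genes of the cluster and within 5 Mb around it, 3 were among the 20 closest to Trim34a, 3 for Trim5, 2 for Trim30d, 1 for Trim30b, and 0 for Trim12a, Trim12c, Trim30a and Trim30c. Members themselves were 3 of these for Trim34a, 2 for Trim5, 2 for Trim30d and 0 for Trim30b. The members were chosen by levels that stay in r, so nothing is read from these counts. Within the 30 CD1 libraries the closest to Trim34a was Gbp10 (0.96) and those of Trim5 were Kdm6a (0.88) and Xist (0.88), both X-linked genes with higher levels in females. Trim30d in CD1 was closest to Bnip5 and H2ac23 (both 0.92), Trim12c to the class I gene H2-Q4 (0.85) and Tap2 (0.84), and Trim30a to Samd9l and Dtx3l (both 0.95). The low genes gave r = 0.86 between Trim30b and Gm20506 and r = 0.68 between Trim30c and Hoxaas2 over the 60 libraries.

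Trim34b and Trim6, which lie beside the members, were called higher in CD1 in 5 and in 2 tissues. Trim34b, the copy of Trim34a, was called higher in CD1 in all 5 tissues, by a log2 fold change of 3.15 ± 0.42 in liver (edgeR, adjusted p = 0.000346), 3.00 ± 0.49 in parotid (0.0118), 2.06 ± 0.33 in sublingual (0.00193) and 1.81 ± 0.28 in submandibular gland (0.00194). In pancreas the 6 CD1 libraries held 2.58 ± 2.78 CPM and the 6 C57 libraries 0.261 ± 0.303 CPM (mean ± SD, edgeR adjusted p = 0.0333), and it lost the call without the 3 libraries that stood apart (0.186). The parotid call was lost with the replicate block (adjusted p = 0.0573) and without the 6 immune-rich libraries (0.597). Counts of Trim34a per count of Trim34b were 11.1 to 20.6 in C57 mice, 1.03 to 1.38 in CD1 females and 0.295 to 0.346 in CD1 males. Since 29.5% of the 75-base words of Trim34a occur in Trim34b, reads of one copy may be counted for the other. The part of such reads in these calls and ratios was not tested. Trim6, a further TRIM gene beside the cluster, was at 4.21 ± 2.79 CPM in CD1 liver and 0.35 ± 0.164 CPM in C57 liver (SD, n = 6 each), a log2 fold change of 3.6 ± 0.36 (edgeR, adjusted p = 3.22e-05). In sublingual gland Trim6 was called at 0.74 ± 0.23 (edgeR, adjusted p = 0.0495), close to the threshold. There the CD1 females held 1.96 to 1.99 CPM and the CD1 males 0.358 to 0.499 CPM, against 0.314 to 0.745 CPM in C57. The strains overlapped for Trim6 in parotid, sublingual and submandibular gland, and for Trim34b in pancreas and parotid. In pancreas Trim6 did not pass the filter. Of 113 genes listed within 1 Mb of the members, 5 to 7 were tested per tissue, and 10 of 31 tests made a call, 8 of them higher in CD1. The background share of genes called between strains was 14.1% in liver, 3.74% in pancreas, 2.02% in parotid, 14.8% in sublingual and 4.75% in submandibular gland.

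Genes of the wider pathway were set beside the cluster. Of 38 interferon-induced genes, the class to which Trim30a belongs, 15 were higher in C57 liver and 1, Mx2, higher in CD1 liver. That is 42.1% of the list, against 14.1% called over all genes in liver. The median log2 fold change of the 38 in liver was -0.51 against 0.03 over all genes. Among the 15, the antiviral gene Ifit3 was at 9.54 ± 1.40 CPM in C57 and 2.94 ± 0.931 CPM in CD1 liver (SD, n = 6 each). Its log2 fold change was -1.73 ± 0.16 (edgeR, adjusted p = 1.35e-05). The guanylate-binding protein gene Gbp3 was at -1.55 ± 0.20 (0.000235) and the RNA sensor gene Ifih1 at -0.79 ± 0.16 (0.00555) in liver. In the other tissues 0 to 1 of the 38 were called, and in pancreas, where 0 were called, 30 were higher in CD1 after CD1 female 1 was left out. The CD1 female pancreas libraries that then remain are those that went against their label. Leaving out CD1 female 1 gave 49 calls in all against 18.

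Of 26 partners of TRIM5 and TRIM30 in TAK1 and NF-kB signalling, 5 of 129 tests made a call, all higher in CD1. By tissue, 11.5% were called in liver, 4% in pancreas, 0% in parotid, 3.85% in sublingual and 0% in submandibular gland. Over all genes the shares were 14.1%, 3.74%, 2.02%, 14.8% and 4.75% in that order. The list lay near or under them, so nothing is read from its number of calls. The transcription factor gene Jun was at 32.2 ± 6.2 CPM in CD1 and 9.53 ± 1.59 CPM in C57 liver (SD, n = 6 each), a log2 fold change of 1.76 ± 0.14 (edgeR, adjusted p = 5.49e-06), and Fos at 1.38 ± 0.28 (0.00623). Ube2w, a ubiquitin-conjugating enzyme that modifies TRIM5, was at 0.27 ± 0.08 in liver (0.0497), a call lost with the replicate block. This count ran from 2 to 10 when single animals were left out, with CD1 female 1 giving 10, CD1 female 2 giving 8 and 2 or 3 without any 1 of the C57 animals, CD1 female 3, CD1 male 1 or CD1 male 3.

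Of 25 other restriction factors, 10 of 125 tests made a call, 7 of them higher in C57. By tissue, 12% were called in liver, 0% in pancreas, 4% in parotid, 12% in sublingual and 12% in submandibular gland. Over all genes the shares were 14.1%, 3.74%, 2.02%, 14.8% and 4.75% in that order, so nothing is read from the number of calls. Apobec3, a cytidine deaminase that acts on retroviral DNA, was at 48.0 ± 6.39 CPM in C57 and 14.8 ± 1.59 CPM in CD1 sublingual gland (SD, n = 6 each), a log2 fold change of -1.71 ± 0.10 (edgeR, adjusted p = 7.57e-07), and at -1.88 ± 0.15 in submandibular gland (6.38e-06). Trim25, which acts on the RNA sensor RIG-I, was at -1.55 ± 0.22 in sublingual (0.000853) and -0.90 ± 0.18 in submandibular gland (0.013). Slfn5 was higher in CD1 submandibular gland by 1.59 ± 0.20 (0.000369). Leaving out CD1 female 1 gave 27 calls, 16 of them in pancreas, where the remaining CD1 females are the libraries that went against their label.

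Of 60 other genes named Trim, 25 of 199 tests made a call, 12 higher in CD1 and 13 higher in C57. By tissue, 13.2% were called in liver, 10.5% in pancreas, 4.65% in parotid, 26.8% in sublingual and 7.69% in submandibular gland. Over all genes the shares were 14.1%, 3.74%, 2.02%, 14.8% and 4.75% in that order. Beside Trim34b and Trim6, these included Trim17, lower in CD1 in all 5 tissues, with log2 fold changes of -1.46 ± 0.30 in liver (edgeR, adjusted p = 0.00659), -1.73 ± 0.27 in parotid (0.00908) and -1.2 ± 0.17 in sublingual gland (0.000817). The parotid call was lost without the 6 immune-rich libraries (adjusted p = 0.578). Its calls in pancreas and submandibular gland were lost on leaving out single animals. Without C57 female 1, C57 female 3 or C57 male 1 the count was 15 each, without C57 male 2 or CD1 male 3 it was 16, and without C57 male 3 it was 14.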

How the data were processed

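The authors deposited 1 table of raw read counts per gene for 60 libraries, with no count column left unused here. Per the submitters' processing notes, Trim Galore, HISAT2, featureCounts and GRCm39 (mm39) were used. Versions, strand and multiple mapping settings are not given in the sources used here. Counts were scaled by TMM and tested with edgeR 4.0.16 (limma 3.58.1, R 4.3.3), quasi-likelihood, on 4 group means per tissue or 10 per strain, after edgeR's default expression filter, with Benjamini-Hochberg adjustment over all genes tested and calls at an adjusted p under 0.05. SEs come from the fitted log2 fold change and its F (|change| over root F). DESeq2 1.42.0 was an alternative. The fits were tested on simulated data. Even counts exceed odd ones among small values by a ratio of 1.68, so 1 fragment may give 2 counts. A group with 3 or fewer counts in each library is at the floor. Floors cover counting error only, since reads are not independent molecules.

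The members and lists were chosen with earlier results of these data known. Named from each list are the 3 genes with the most tissues called, then by size, at 1 CPM or more, and for likeness the 2 genes with the highest r. Replicate numbers mark the same animal across tissues, per the library names in the labels, and different animals within a tissue. Same-animal deviations correlated between tissues with a median of 0.09 in C57 and 0.12 in CD1. Replicates within a group are separate animals, and their counts differed beyond sampling noise, with chi-square per degree of freedom of 21.6 to 3160.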

Additional observations from a re-analysis of the deposited data

Results flagged for a closer look

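The sex difference of Trim5 in CD1 differed from that in C57 by -3.83 on the log2 scale in sublingual gland and by -3.63 in submandibular gland, the 2 member and tissue combinations whose strain-by-sex term passed the test across all genes. This pattern was known when the genes were chosen, so no p is given. In CD1 every female lay above every male in both glands, and in C57 the sexes overlapped.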

How the results depend on the processing

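Alternatives changed 1 choice at a time, and removal of the 6 immune-rich parotid libraries was chosen after seeing the data. The count of members with strains apart stayed at 12 to 13 when single animals were left out and was 9 where a 2-fold gap was asked for. It does not use the low-count filter. Sex calls of members ran from 5 to 12 over single animals. Tissue calls ran from 6 to 7 in C57 and from 3 to 6 in CD1, and in CD1 were 5 without the low-count filter. With the replicate block, sex calls stayed at 5 and tissue calls were 7 in C57 and 2 in CD1. Over single animals, strain calls ran from 12 to 49 for interferon-induced genes, from 2 to 10 for signalling partners, from 8 to 27 for other restriction factors, from 14 to 32 for other Trim genes and from 7 to 11 for neighbours. With the DESeq2 test they were 41, 11, 24, 39 and 12 in that order. For signalling partners they were 3 with DESeq2 size factors and 2 with the replicate block. The cause was not tested. Of the 28 calls of list genes named by rule, 12 were lost in at least 1 alternative, and no sign turned. Counts of 3 or fewer limit what can be said of Trim30b everywhere, of Trim12a in CD1 and of Trim5 in CD1 males.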
